A study of Mus musculus with 3 samples.

Results

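Of 15122 peaks of histone H3 trimethylated at lysine 4 (H3K4me3) on chromosomes 1 to 19 and X of mouse alveolar type II (AT2) cells, 1317 (8.71%) were shorter than 600 bp and overlapped no peak of the transcription factor ETV5 by any base. These 1317 short ETV5-free peaks are described here by where they lay, which genes they marked and what their promoters looked like. The cells were AT2 cells of C57BL/6 mice aged 10 to 12 weeks, the surfactant-making cells of the lung alveolus, with no genetic change or treatment named. One chromatin library was made with an antibody to ETV5, 1 with an antibody to H3K4me3, and 1 input library without antibody is listed. The sources used here do not give how many animals were pooled. Since each antibody has 1 library, neither a replicate check nor a test across libraries could be made. Shares are therefore given with exact Clopper-Pearson 95% intervals, and pileups with exact Poisson 95% intervals, which cover counting error only. The H3K4me3 list rested on 34907608 tags and the ETV5 list on 5715049 tags, so "ETV5-free" means that no ETV5 peak was called at that lower depth.

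H3K4me3 is laid down at gene starts by SET1 and MLL complexes. It is broad and strong at active CpG-rich promoters, and weak or short at little-used promoters and at some enhancers. In poised (bivalent) promoters, typical of developmental regulators, it lies together with the repressive mark H3K27me3. ETV5 is an ETS-family factor that binds a core GGAA and acts downstream of FGF and ERK signalling, and in the lung it is known for its part in AT2 cell identity. Neither RNA nor a repressive mark was measured in this series, so whether a gene was silent or poised could not be read from these data. What could be counted is how often short ETV5-free peaks lay at genes of lists that are usually silent in AT2 cells, poised in other settings or used by other cell types.

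The sequences below are the 250 bases before the start site of the 6 protein-coding genes with the strongest short ETV5-free peaks among those with a promoter in the RefSeq table (GRCm38.p6). They are shown because these gene starts carried H3K4me3 without an ETV5 peak and because they differ in CpG content, with 0 to 8 CpG per stretch. Each runs 5′ to 3′ on the strand of the gene, and capitals mark every CpG.
Bbs1 (chr19:4906628-4906877, minus strand): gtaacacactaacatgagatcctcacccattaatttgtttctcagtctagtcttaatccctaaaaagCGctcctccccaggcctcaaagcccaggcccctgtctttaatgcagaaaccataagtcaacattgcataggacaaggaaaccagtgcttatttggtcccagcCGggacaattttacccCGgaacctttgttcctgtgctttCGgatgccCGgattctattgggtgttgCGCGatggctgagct
Shmt2 (chr10:127522445-127522694, minus strand): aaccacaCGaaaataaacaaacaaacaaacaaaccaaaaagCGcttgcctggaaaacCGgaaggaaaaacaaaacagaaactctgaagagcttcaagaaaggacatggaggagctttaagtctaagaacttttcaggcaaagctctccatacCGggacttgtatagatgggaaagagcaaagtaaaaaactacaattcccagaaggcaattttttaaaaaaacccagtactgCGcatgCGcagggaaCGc
Itpripl1 (chr2:127143458-127143707, minus strand): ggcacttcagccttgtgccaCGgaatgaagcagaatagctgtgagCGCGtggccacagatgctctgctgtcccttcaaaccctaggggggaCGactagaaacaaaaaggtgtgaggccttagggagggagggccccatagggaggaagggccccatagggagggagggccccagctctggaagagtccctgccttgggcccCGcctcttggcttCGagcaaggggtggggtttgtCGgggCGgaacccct
D130040H23Rik (chr8:69270854-69271103, plus strand): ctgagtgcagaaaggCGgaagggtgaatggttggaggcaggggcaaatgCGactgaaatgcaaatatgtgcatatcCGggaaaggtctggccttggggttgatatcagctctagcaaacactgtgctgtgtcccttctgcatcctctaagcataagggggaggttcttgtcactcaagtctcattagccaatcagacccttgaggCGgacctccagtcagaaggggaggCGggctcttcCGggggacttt
Mterf2 (chr10:85128016-85128265, minus strand): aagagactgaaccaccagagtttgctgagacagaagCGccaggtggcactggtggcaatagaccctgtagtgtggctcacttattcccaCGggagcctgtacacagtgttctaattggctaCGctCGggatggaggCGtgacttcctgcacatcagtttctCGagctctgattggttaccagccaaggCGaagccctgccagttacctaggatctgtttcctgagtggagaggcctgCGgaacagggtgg
Mr1 (chr1:155146815-155147064, minus strand): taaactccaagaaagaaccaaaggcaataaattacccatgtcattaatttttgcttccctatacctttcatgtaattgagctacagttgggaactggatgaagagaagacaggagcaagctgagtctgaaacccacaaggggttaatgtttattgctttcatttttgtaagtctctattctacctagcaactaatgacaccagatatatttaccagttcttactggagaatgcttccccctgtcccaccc
Mr1 had no CpG in the printed stretch, and 1 in its 300-base window (250 bases before to 50 after the start). The Shmt2 window held 13 CpG and an observed over expected CpG ratio of 0.956. The windows of Bbs1, Shmt2 and D130040H23Rik held the ETS-type letters CCGGAA on one of the strands, and that of Mterf2 held GGAAGT. The windows of Itpripl1 and Mr1 held neither.

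These peaks were selected on H3K4me3 length and on the absence of ETV5, and fold and pileup come from the same measurement, so the following values are a description. The 1317 peaks were 288 to 599 bp long with a median of 410 bp (quartiles 338 and 500 bp). The shortest length equals the 288 bp fragment length that the peak caller used, and 71 peaks (5.39%) had it. Their fold enrichment over background was 2.35 to 21.3, with a median of 4.38 (quartiles 3.61 and 5.59). At the summit they held 17 to 145 overlapping fragments, with a median of 28. Their median fold was close to the 4.86 of the 1261 short peaks that overlapped ETV5, below the 10.6 of 1065 longer peaks without ETV5, and below the 33.5 of 11479 longer peaks with ETV5. For scale, the peaks at Sftpc (surfactant protein C), Etv5 and Nkx2-1 (the lung lineage factor) had folds of 53.6, 49.4 and 60.9 and lengths of 7353, 6698 and 12934 bp. Only 41 of the short ETV5-free peaks (3.11%) reached a fold of 10. Together they covered 554 kb, which was 2.71% of all bases under H3K4me3 peaks. Whether a weak peak stands for a weak mark in all cells or for a strong mark in few of them cannot be told apart in such bulk chromatin.

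**Figure D1:**
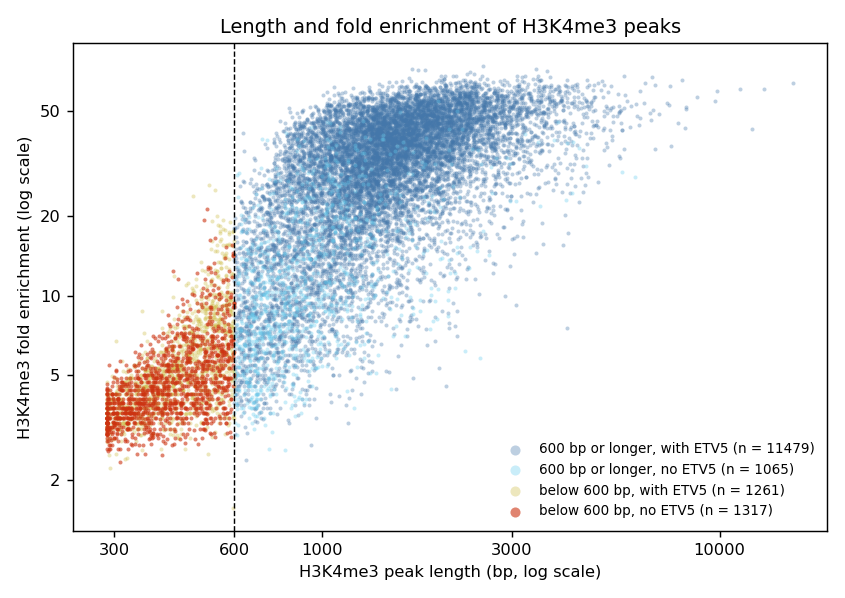
Each point is an H3K4me3 peak. Its length in bp is on the x axis and its fold enrichment over background on the y axis, both on log scales. Colours give the 4 classes of peaks and the dashed line marks 600 bp. The 1317 short ETV5-free peaks (red) lie within the range of fold of the 1261 short peaks that overlap ETV5, and all but 41 lie below a fold of 10.

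The limit of 600 bp does not mark a gap in the data. Among the longest peaks below it, at 599 bp, were one 24752 bp from the nearest protein-coding start, that of Alox5ap (fold 9.08), and one at the start of Ust (fold 6.12). The 3 shortest ETV5-free peaks at or above it were 600 bp at the start of Gcnt2 (fold 4.80), 600 bp at 44031 bp from Phf21a (fold 6.59) and 601 bp at 76355 bp from Gadd45a (fold 3.59). Between 550 and 600 bp there were 153 short ETV5-free peaks with a median fold of 6.04, and from 600 to 650 bp there were 104 ETV5-free peaks with a median fold of 6.59.

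Most of the short ETV5-free peaks did not lie at a gene start. Of the 1317, 307 (23.3%, interval 21.1 to 25.7%) came within 1 kb of the start of a protein-coding gene. A further 489 (37.1%) lay inside a protein-coding gene away from its start and 521 (39.6%) lay between such genes. The share at starts was 47.6% (44.8 to 50.4%) for short peaks with ETV5, 48.5% (45.5 to 51.6%) for longer peaks without ETV5, and 86.6% (86.0 to 87.2%) for longer peaks with ETV5. The interval of the short ETV5-free peaks therefore lay below those of the other 3 classes. Of the 1010 peaks away from protein-coding starts, 125 (12.4%) lay at the start of another kind of gene. Where the promoter table gave no start for a gene, either of its ends counted, so some of these peaks may lie at the far end. These were 89 long noncoding RNA (lncRNA) genes, 16 pseudogenes, 8 tRNA genes, 5 miRNA genes, 5 snRNA genes, 1 transcribed pseudogene and 1 other RNA gene. With every annotated gene counted by the same rule, 432 short ETV5-free peaks (32.8%) were at a start, and 353 (26.8%) lay away from every annotated gene.

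**Figure D2:**
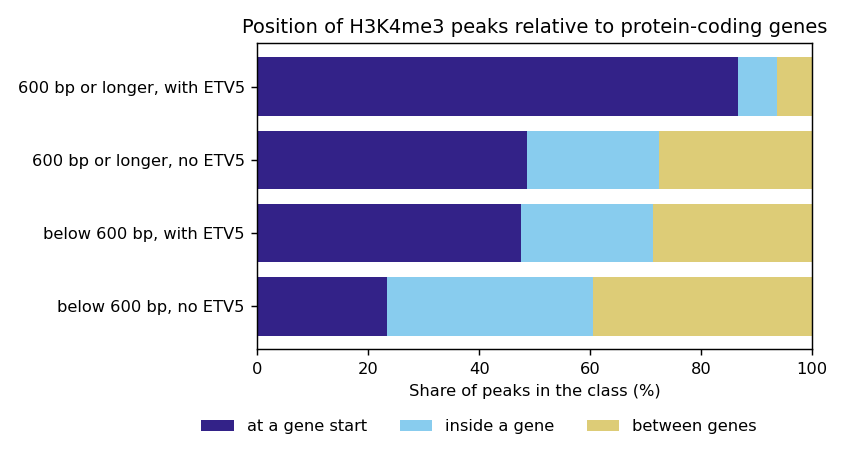
Bars give, for each of the 4 classes of H3K4me3 peaks, the share of peaks in percent that lie within 1 kb of a protein-coding start, elsewhere inside such a gene, or between genes. Peaks at starts make up 23.3% of the short ETV5-free class and 86.6% of the longer peaks with ETV5.

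Among short peaks alone, the position went with the absence of ETV5. Of 907 short peaks at protein-coding starts, 307 (33.8%, 30.8 to 37.0%) lacked ETV5, compared with 489 of 789 inside genes (62.0%, 58.5 to 65.4%) and 521 of 882 between genes (59.1%, 55.7 to 62.3%). The weaker peaks lacked ETV5 more often at every position, so the comparison was also made within ranges of fold. Below a fold of 4 the shares were 42.7% at starts, 68.6% inside genes and 64.0% between genes. From 4 to 6 they were 33.6%, 61.2% and 59.3%, and from 6 upward 26.6%, 46.7% and 52.3%. In each range the interval at starts lay below those of both other positions.

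Part of the set flanked stronger peaks. Another H3K4me3 peak lay within 5 kb of 371 of the short ETV5-free peaks (28.2%, 25.8 to 30.7%). This was less often than for short peaks with ETV5 (41.2%, 38.5 to 44.0%) and more often than for longer peaks without ETV5 (19.4%, 17.1 to 21.9%) and with it (20.2%, 19.5 to 20.9%). Within 1 kb there was another peak beside 240 of them (18.2%). That neighbour was a longer peak with ETV5 in 151 cases (62.9%), with a median length of 1746 bp and a median fold of 34.8. It was another short ETV5-free peak in 46 cases, a longer peak without ETV5 in 26 and a short peak with ETV5 in 17. Median fold and length were 3.90 and 383.5 bp for the 240 flanking peaks and 4.49 and 419 bp for the 1077 lone ones.

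Lacking ETV5 did not always mean being far from it. An ETV5 peak lay within 1 kb of 249 short ETV5-free peaks (18.9%, 16.8 to 21.1%), without overlapping them. This applied to 137 of the 240 flanking peaks (57.1%) and to 112 of the 1077 lone peaks (10.4%). At the other end, 541 (41.1%) were more than 20 kb from any ETV5 peak. At gene starts the same split was 55 of 70 flanking peaks (78.6%) and 28 of 237 lone ones (11.8%).

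At gene starts, lone and flanking peaks differed in position. Where the start site and its strand were known, the summits of 188 lone short ETV5-free peaks lay at a median of 133.5 bp downstream of the start, and 74.5% (67.6 to 80.5%) were downstream. This was nearer the start than the 221 bp of longer peaks with ETV5, of which 85.7% were downstream. The length rule limits how far the summit of a peak covering the start can lie from it, so these distances are a description. The 54 flanking peaks instead had a median of -249.5 bp, with 40.7% (27.6 to 55.0%) downstream and quartiles of -504.75 and 543 bp, on both sides of the start. Short peaks with ETV5 had 51.7% downstream.

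The strongest short ETV5-free peak, at a start or elsewhere, was at the start of Katnal2, a relative of the microtubule-severing enzyme katanin. It lay at chr18:77046944-77047457, with a fold of 21.3 and 140 fragments at the summit (interval 118 to 165), and the nearest ETV5 peak was 17222 bp away. Among those at protein-coding starts, Bbs1, a subunit of the BBSome that moves receptors into cilia, followed with a fold of 16.3 and 104 fragments (85.0 to 126). Shmt2, the mitochondrial serine hydroxymethyltransferase, had a fold of 15.5 and 98 fragments, with an ETV5 peak 1344 bp away. These values lie between the bulk of short peaks and the peaks of AT2 genes such as Sftpc.

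The next in order at protein-coding starts were Itpripl1 (fold 14.6), D130040H23Rik (14.1), Matn2 (14.0), Mterf2 (13.3) and Mr1 (12.9), with ETV5 8907 to 68100 bp away. Matn2 encodes a matrix protein, Mterf2 belongs to a family of mitochondrial transcription factors, and Mr1 is the class I-like molecule that presents vitamin B metabolites to MAIT cells. The last of the 10 strongest at protein-coding starts, at Prcc (12.2) and at the transcription factor gene Maf (11.8), were 96 bp and 65 bp from a longer peak with ETV5. These 10 thus divide into 8 that stood alone and 2 that flanked a stronger peak.

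Away from protein-coding starts, the strongest lay at chr4:88640732-88641236, 3223 bp from the start of the type I interferon gene Ifna13. It had a fold of 19.4 and 123 fragments (102 to 147). A peak 16733 bp from Zfp418, a zinc finger gene, had a fold of 16.6 and 145 fragments (122 to 171). The next, with a fold of 15.4, was 1359 bp from a start or end of the lncRNA gene 1700063D05Rik. The fourth, with a fold of 14.3, was 564 bp from a start or end of the lncRNA gene Gm38944. The fifth, with a fold of 12.7, was 170258 bp from Tnfaip3, which encodes an inhibitor of NF-kB signalling, and 4352 bp from an ETV5 peak.

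When short ETV5-free peaks less than 20 kb apart were joined, 1177 stood alone, 58 pairs formed, and 6 runs held 3 or more. The longest run was in Firre, an X-linked lncRNA gene with a repeated domain whose RNA stays in the nucleus (X, 50563120 to 50635321). It held 8 short ETV5-free peaks between 50572435 and 50623399, with folds of 4.23 to 7.21, 26 to 45 fragments and lengths of 331 to 457 bp. The right end of the gene carried a peak of 1887 bp with a fold of 23.8 that also lacked ETV5. Of the 8, none was within 5 kb of an ETV5 peak, and the nearest distance was 5601 bp. Runs of 3 lay in Foxp2, in Pde4a and at 1700063D05Rik.

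The other 2 runs, of 4 and 3 peaks, were in the gamma protocadherin cluster on chromosome 18. Each variable exon of this cluster has its own promoter and is spliced to shared constant exons, giving cells different adhesion proteins. Among 21 gamma genes, 7 had a short ETV5-free peak as their only H3K4me3 class. These were Pcdhga1 (fold 2.98), Pcdhga2 (4.23), Pcdhga3 (4.08), Pcdhgb4 (6.90), Pcdhga8 (3.04), Pcdhgb5 (8.29) and Pcdhga9 (3.76). Another 6 had a longer ETV5-free peak, 3 a short peak with ETV5, 3 a longer peak with ETV5, and 2 had none within 1 kb of a gene end. Start sites were not known on this chromosome, so gene ends were used. Short ETV5-free peaks assigned to Pcdhga12 (fold 3.95) and Pcdhgc5 (4.07) lay farther than 1 kb from those ends and were not counted for these genes. The highest fold of the cluster, 35.4, was at Pcdhgc3. None of the alpha and beta genes had a short ETV5-free peak as its only class. The 7 genes are 12.3% (5.08 to 23.7%) of the 57 clustered protocadherins, beside 1.07% of all protein-coding genes. They lie close together in a single cluster and are not independent, which the interval does not take into account.

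**Figure D3:**
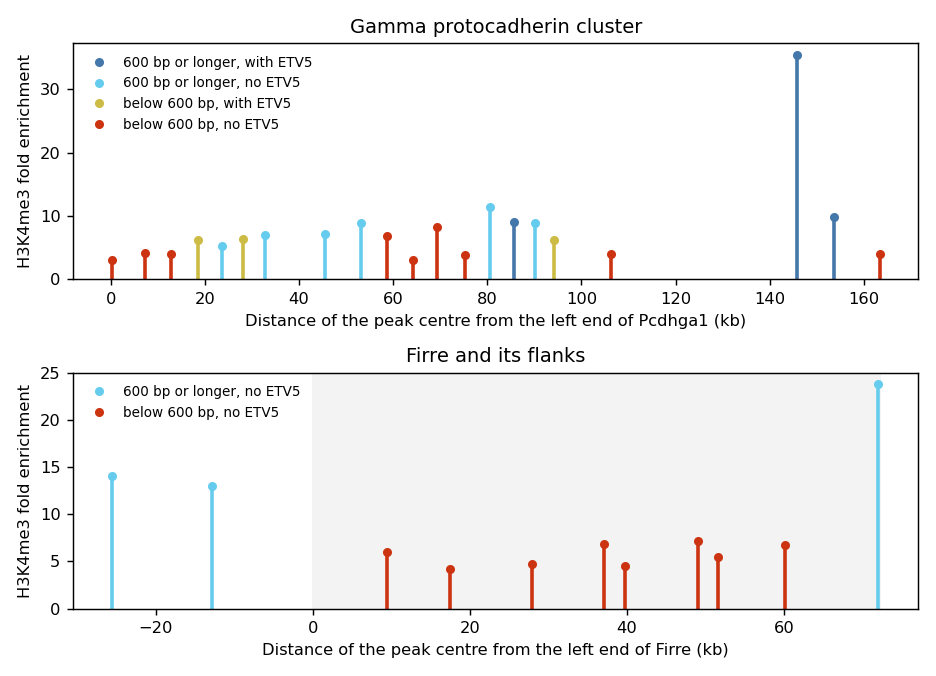
Stems give the fold enrichment of every H3K4me3 peak (y axis) against the distance of its centre in kb from the left end of Pcdhga1 (upper panel) or of Firre (lower panel, gene shaded); colours give the class of the peak. The 8 short ETV5-free peaks in Firre reach folds of 4.23 to 7.21, below the 23.8 of the longer peak at its right end, and those in the protocadherin cluster are interspersed with longer peaks.

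Few genes had a short ETV5-free peak and nothing stronger. Of 21631 protein-coding genes, 319 had one within 1 kb of a start, and in 71 of these a longer peak with ETV5 was also there. A gene was assigned to its strongest class in the order longer with ETV5, longer without, short with, short without. By this rule 232 genes (1.07%) had short ETV5-free peaks alone, against 10701 with a longer ETV5 peak, 468 with a longer ETV5-free peak, 350 with a short ETV5 peak and 9880 with none. An H3K4me3 peak of any class was at 54.3% of protein-coding genes. Of 12697 lncRNA genes, 100 (0.788%) had short ETV5-free peaks alone, with either end counted where no start was known. The 1.07% is the background against which the lists below are read.

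Genes that are often poised were in this group at a share near that of all protein-coding genes. Of 217 developmental regulators and signalling genes on 2 lists, 2 (0.922%, 0.112 to 3.29%) had a short ETV5-free peak alone, which is near the background. A longer peak with ETV5 was at 21 of them, a short peak with ETV5 at 9, and no H3K4me3 peak at 184. Only 15.2% of them had a peak of any class, against 54.3% of all protein-coding genes, so the share over all list genes says little about the marked ones. The 2 genes were the homeobox gene Msx1 (fold 4.71, 29 fragments, 19.4 to 41.6) and Pou4f1, a sensory neuron factor (fold 3.92, 24 fragments, 15.4 to 35.7). The Msx1 peak lay 821 bp from the start and 86 bp from an ETV5 peak, and that of Pou4f1 lay 94 bp from one. Where any ETV5 peak within 1 kb removed a peak, 0 of the developmental regulators were left. All 39 Hox genes lacked H3K4me3 peaks of every class.

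Genes of other cell types, pooled over their lists, were likewise near the background. On 18 lists of cell types other than AT2 and AT1 cells, 11 of 771 genes (1.43%, 0.714 to 2.54%) had a short ETV5-free peak alone, while 656 had no H3K4me3 peak. A peak of any class was at 14.9% (12.5 to 17.6%) of these genes, against 54.3% of all protein-coding genes. Most of the list genes were thus unmarked, and the marked ones more often carried a longer peak with ETV5 (76 genes). Over all protein-coding genes, 232 had short ETV5-free peaks alone and 10701 a longer peak with ETV5. Among marked genes, the 11 beside 76 on these lists were therefore a larger part than overall. Fibroblast and mesenchymal markers had the highest share of the 18 lists, 3 of 44 (6.82%, 1.43 to 18.7%). The lower bound was just above the background of 1.07%, but the interval takes no account of picking the highest of 18 lists. Where any ETV5 peak within 1 kb removed a peak, 2 of these genes were left. The counts were 2 of 113 for neuronal genes, 2 of 61 for muscle genes and 2 of 37 for basal and squamous markers. Ciliated markers, secretory markers and genes of gut, pancreas and kidney had 1 each. They were 0 on all 5 leukocyte lists and on the endothelial (0 of 46), mesothelial, neuroendocrine and tuft, liver, erythroid and germ cell lists. The upper bounds for these lists ran from 5.06% (germ cell, 0 of 71) to 26.5% (mesothelial, 0 of 12). Each interval thus includes the background of 1.07%, and the lists are too small to show a lower share.

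Zeb2 (fold 3.45), Vim (3.61) and Snai2 (4.64) were the mesenchymal genes. Zeb2 and Snai2 encode repressors of epithelial genes and Vim encodes vimentin. Snai2 is also on the basal list, where the other gene was Tgm1 (5.49), which encodes a transglutaminase of the skin barrier. The peak of Vim lay 167 bp and that of Tgm1 192 bp from an ETV5 peak, whereas Zeb2 and Snai2 were 182203 and 343380 bp from the nearest one.

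In muscle, Ryr2, the calcium release channel of heart muscle, had a fold of 5.96 with 37 fragments (26.1 to 51.0). Myh7, a myosin heavy chain, had 4.39, and its peak was 94 bp from the next H3K4me3 peak. The neuronal genes were Syn2, a synaptic vesicle protein (4.71), and Slc6a3, the dopamine transporter (4.08). Gmnc (3.76), which starts the multiciliated cell programme, Pon1 (2.97), a paraoxonase, and Pcsk2 (3.29), a prohormone convertase, completed the 11 genes. Folds for the 11 thus ran from 2.97 to 5.96, within the range of all short ETV5-free peaks.

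Of the 70 AT2 and AT1 markers 0 (0 to 5.13%) had a short ETV5-free peak alone, an interval that includes the background of 1.07%, and 81.4% had a peak of some class. With a limit of 800 bp, 1 AT1 marker was in the group. AT2 markers had a longer peak with ETV5 at 26 and a longer peak without ETV5 at 7 of 40 genes. Of 50 ubiquitous housekeeping genes 49 had a longer peak with ETV5. The pan-leukocyte list, which marks cells other than AT2 that a preparation can hold, had longer peaks at 5 of 29 genes, 4 with ETV5 and 1 without. The part of such cells in the short ETV5-free peaks was not tested. Of 46 inducible cytokine and chemokine genes, 1, Cxcl10 (fold 3.64), was in the group.

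**Figure D4:**
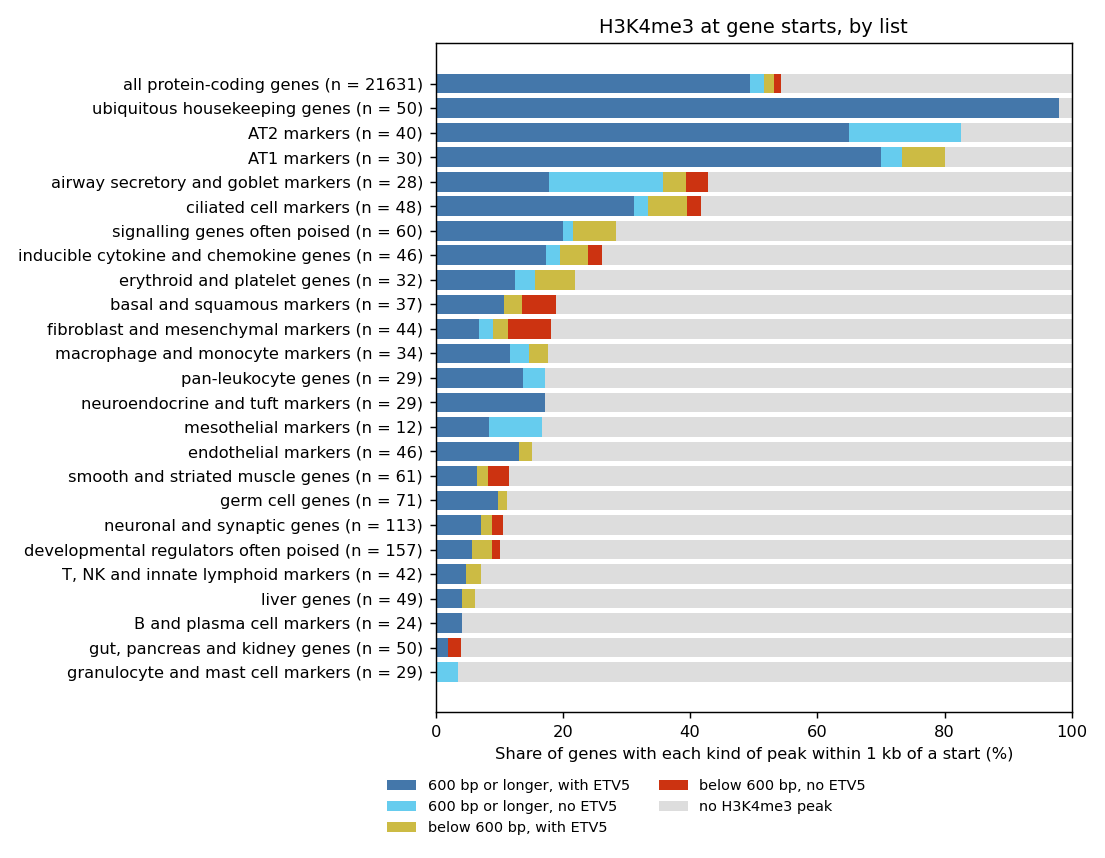
Bars give, for all protein-coding genes and for each of 24 gene lists, the share of genes in percent by the strongest class of H3K4me3 peak within 1 kb of a start; n is the number of genes. The red segment, genes with a short ETV5-free peak alone, is 1.07% for all genes. It is highest for fibroblast and mesenchymal markers, 6.82% (3 of 44), picked as the highest of the 24 lists. It is absent from the AT2, AT1 and housekeeping lists, and also from others such as the endothelial, liver and germ cell lists. The intervals of all lists without it include 1.07%.

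Gene families that most tissues keep silent carried few H3K4me3 peaks. Of 1500 olfactory, vomeronasal and taste receptor genes, 0 (upper bound of the interval 0.246%) had a short ETV5-free peak alone, and 1499 had no H3K4me3 peak. Of 109 keratin and keratin-associated genes 0 were in the group and 102 were unmarked. Zinc finger genes named Zfp were mostly marked, with 280 of 400 under a longer peak with ETV5, and 7 (1.75%, 0.706 to 3.57%) in the group. Of the solute carriers 5 of 389 (1.29%) were in it, among them the cystine transporter Slc7a11, and of the genes named Rpl or Rps 1 of 97. That gene, Rps23rg1, is a retroposed relative of Rps23 that the name pattern includes. The intervals of these 3 families include the background of 1.07%. Near-identical copies can share reads, and the sources used here do not say how such reads were placed.

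Start sites with short ETV5-free peaks alone, called the group here and for the motifs below, were intermediate in CpG content. Start sites were classed singly and a gene can have several, so they are not the same set as the 232 genes above. The intervals treat them as independent. Over 231 start sites with short ETV5-free peaks alone, the observed over expected CpG ratio of the 300-base window had a median of 0.449 (quartiles 0.291 and 0.718). The median was 0.804 at 10352 start sites with longer ETV5 peaks, 0.684 at 307 with short ETV5 peaks, 0.495 at 478 with longer ETV5-free peaks and 0.228 at 9677 without H3K4me3. A ratio of at least 0.6, typical of a CpG island, was found in 34.2% (28.1 to 40.7%) of the group, compared with 63.5% (57.9 to 68.9%) for short peaks with ETV5 and 37.4% (33.1 to 42.0%) for longer peaks without it. The interval of the group overlapped that of the longer ETV5-free peaks and not that of the short peaks with ETV5. The sequences printed above span this range, from Shmt2 at 0.956 to Mr1 at 0.0826 over the 300 bases.

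**Figure D5:**
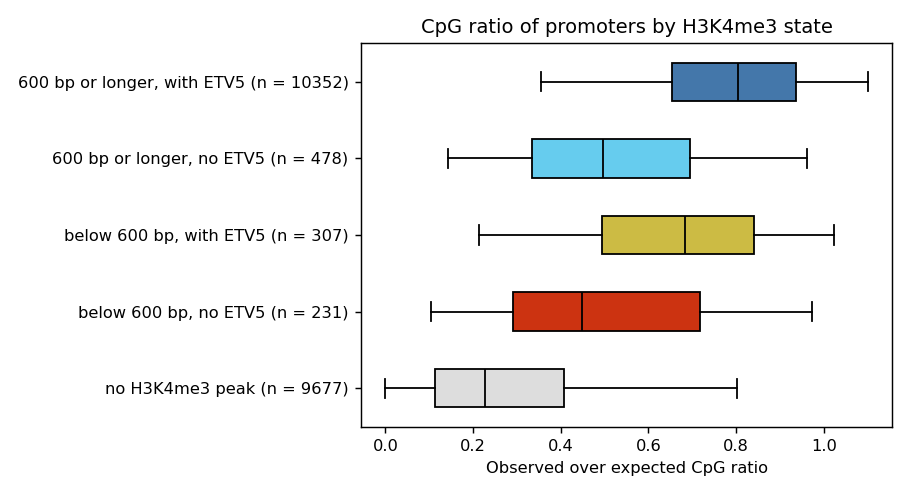
Boxes give the quartiles and median of the observed over expected CpG ratio (x axis) of 300-base promoter windows by the strongest H3K4me3 class within 1 kb of the start site; whiskers span the 5th to 95th percentile and n counts start sites. The median of short ETV5-free peaks is 0.449, close to the 0.495 of longer ETV5-free peaks and below the 0.684 of short peaks with ETV5.

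Short motifs were searched as exact letters on both strands of these windows. CCGGAA, an ETS-type site that contains a CpG, was in 18 of the 231 windows of the group (7.79%, 4.68 to 12.0%). It was in 31.8% of windows with longer ETV5 peaks, 15.0% (11.2 to 19.5%) with short ETV5 peaks, 13.2% (10.3 to 16.5%) with longer ETV5-free peaks, 5.75% without H3K4me3 and 18.9% of all 21045 windows. GGAAGT, which holds the GGAA core without a CpG and can overlap the end of CCGGAA, was in 25.5% (20.05 to 31.7%) of the group, 16.9% (12.9 to 21.6%) of windows with short ETV5 peaks, 28.6% with longer ETV5 peaks, 27.2% with longer ETV5-free peaks, 21.2% without H3K4me3 and 24.97% of all windows. The order of the group and the short peaks with ETV5 was thus the reverse of that for CCGGAA, and for both motifs their intervals overlapped. TATAAA, the core of the TATA box, was in 8.66% (5.37 to 13.1%) of the group and 12.7% of all windows. It was in 5.35% of windows with longer ETV5 peaks, 11.4% with short ETV5 peaks, 10.5% with longer ETV5-free peaks and 20.7% without H3K4me3.

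The share of H3K4me3 peaks that were short and ETV5-free ran from 5.12% on chromosome 11 to 11.9% on chromosome 3 (9.69 to 14.5%). It was also 11.9% on X (58 of 487, 9.17 to 15.1%), beside 8.60% for the autosomes together.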

How the data were processed

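AT2 chromatin was immunoprecipitated for ETV5 and for H3K4me3 and sequenced, with 1 library each. The authors called peaks in each with MACS2 (2.1.0.20150420), with a q-value threshold of 0.05 and 1 tag kept per position, per the file headers. The pileup signal (fragments at the summit), the fold ratio (pileup over the background of the peak caller, with 1 added to both) and the significance on a −log10 scale (p-value and q-value) are as the authors deposited them. For 768 of the 1317 short ETV5-free peaks (58.3%) that background was the genome-wide value and not a local input value. This was so for 55.0% of the longer peaks with ETV5. Per the file headers, ETV5 had 5715049 tags against 27495486 input tags and H3K4me3 34907608 against 44758677. The input used for ETV5 has another name there than the input sample of the labels. The sources used here name no aligner. The submitters' processing notes name mm9, whereas the coordinates match GRCm38, which is used here with RefSeq tables of GRCm38.p6.

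From these lists, peaks on chromosomes 1 to 19 and X were classed by length (below 600 bp) and by overlap with ETV5 peaks (at least 1 bp), checked with bedtools 2.31.1 and tested on simulated data. The 12 H3K4me3 peaks elsewhere were left out. Start sites came from the RefSeq promoter table for 17274 of 21631 protein-coding genes, and both gene ends were used for the others, including all on chromosome 18. Genes of other kinds without a start in that table were treated in the same way. A peak within 1 kb of a start counted as at it. The CpG ratio is the CpG count times the window length over the product of C and G counts. Python 3.11.15, numpy 2.4.6, pandas 2.3.3, scipy 1.17.1 and matplotlib 3.10.9 were used. The peaks and the 24 gene lists (1132 of 1140 genes matched) were chosen with earlier results of these data known, so list counts are descriptions. Named are the 10 strongest peaks at protein-coding starts, the 5 strongest away from them, 3 ETV5-free peaks on each side of 600 bp, up to 5 genes per list, and Sftpc, Etv5 and Nkx2-1. An item that this rule names is not reported here. Families, runs and the genes within them were named from fixed name patterns or after their values were seen. Alternatives covered the length limit, ETV5 and H3K4me3 thresholds, windows and annotation.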

Additional observations from a re-analysis of the deposited data

How the results depend on the processing

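The number of short ETV5-free peaks (1317) stayed within 1.5 times of this under 5 of 6 alternatives, from 984 to 1918, and fell to 447 where only H3K4me3 peaks with a fold of at least 5 were used. The share at a protein-coding start (23.3%) became 29.5% with that fold, 26.2% with a limit of 800 bp, 20.97% where an ETV5 peak within 1 kb also removed a peak, 28.99% where only ETV5 peaks with −log10 q of at least 10 did, 21.03% with a window of 500 bp, 39.4% with one of 5 kb, 32.8% with all annotated genes and 18.4% with only genes in the promoter table. The share within 5 kb of another H3K4me3 peak (28.2%) became 18.1% at a fold of at least 5, 24.8% at an H3K4me3 −log10 q of at least 5 and 20.04% without ETV5 within 1 kb. Other distances gave 18.2% within 1 kb and 51.4% within 20 kb. Genes with short ETV5-free peaks alone numbered 359 in place of 232 with a limit of 800 bp, and listed genes among them stayed between 10 and 19 around 14. The share of promoters with a CpG ratio of at least 0.6 stayed between 31.0 and 36.2% around 34.2%. The counts for single lists changed by over 1.5 times in 11 of 120 cases, with the developmental regulators at 0 to 4 genes. The alternatives without neighbours within 1 kb, with only genes in the promoter table, with no ETV5 within 1 kb for the lists, and all those for CpG were chosen after seeing the data. No paired analysis was possible because each antibody has 1 library. The lower ETV5 depth limits which weak ETV5 peaks could be called, and an H3K4me3 pileup of 28 carries a wide counting interval.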

Other observations

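Interferon-response genes stood out by eye among the genes with short ETV5-free peaks, and a list of 84 was written after that, so its count is a description chosen on these data. Of 80 matched genes, 10 (12.5%, exact 95% interval 6.16 to 21.8%) had a short ETV5-free peak alone, beside 1.07% of all protein-coding genes. A longer ETV5-free peak was at 12, a longer peak with ETV5 at 26, a short peak with ETV5 at 0, and none at 32. The 10 were Epsti1 (fold 7.999, 50 fragments, 37.1 to 65.9), Uba7 (6.90), Xaf1 (6.86), Phf11d (6.81), Gbp3 (4.86), Ifi44 (4.69), Cxcl10 (3.64), Rsad2 (3.45), Ifitm3 (3.44) and Gbp5 (2.88). Uba7 encodes the activating enzyme for ISG15, Gbp3 and Gbp5 encode guanylate-binding proteins, and Rsad2 and Ifitm3 encode antiviral proteins. Their peaks were 2742 to 163817 bp from the nearest ETV5 peak, and in 10 of 10 no other H3K4me3 peak lay within 1 kb. The latter held for 237 of all 307 short ETV5-free peaks at starts. Genes with another class of peak near the start were left out of the 10 by definition, which makes lone peaks likelier.

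Replication-dependent histone genes, also grouped after their values were seen, had short ETV5-free peaks alone at 5 of 63 (7.94%, 2.63 to 17.6%): H2ac15, H2ac19, H2bc15, H3c15 and H4c2. The share of all protein-coding genes was 1.07%. H2ac19 and H3c15 shared a single peak, and so did H2ac15 and H2bc15. The 5 genes are therefore not independent, which the interval does not take into account. Their copies are nearly identical, and the sources used here do not say how reads that fit several copies were placed.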
